A study of Homo sapiens with 8 samples.

Results

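The genes of 10 chromatin remodeller proteins outside the SWI/SNF complex were examined for occupancy by Flag-tagged ARID1A, a SWI/SNF subunit. They were INO80, INO80B, INO80C, INO80E, RUVBL1, RUVBL2, EP400, CHD1, CHD4 and SMARCA5, 10 of the 20033 protein-coding genes of the RefSeq table (GRCh38.p14) on the assembled chromosomes. All peaks with a summit inside a gene or within 10 kb of its ends were taken. The genes were picked by name for their families with peak patterns of these libraries already known, so their patterns are given as descriptions and carry no test. The cells were Huh7, a hepatocellular carcinoma line, and every group carried a knockout of ARID1A. One group expressed wild-type ARID1A-Flag from a lentivirus (WT), another expressed the V2084D missense mutant with the same tag (V2084D), and in the remaining group the V2084D cells also carried a knockdown of STUB1, a chaperone-linked ubiquitin ligase (knockdown). Each group had 2 Flag ChIP-seq libraries, named replicates 1 and 2. Whether the knockout line is a single clone, whether replicates are separate cultures, and which promoter drove the construct is not stated by the labels. The spread between replicates may therefore be technical. WT input libraries were not analysed here. Of 7 hepatocyte marker genes looked at (ALB, AFP, TTR, SERPINA1, APOA1, HNF4A and FOXA2), APOA1 alone had a peak in both WT lists. Peaks record where the tagged protein was found and do not measure expression, so this does not bear on the identity of the cells.

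ATP-dependent remodellers slide, evict or exchange nucleosomes, and they fall into families named after their motor proteins, among them SWI/SNF, INO80, CHD and ISWI. INO80 is the motor of the INO80 complex, which moves nucleosomes near gene starts and acts in transcription, replication and DNA repair, and INO80B, INO80C and INO80E are subunits of that complex. RUVBL1 and RUVBL2 are ring-forming ATPases shared by the INO80 complex and by the related SRCAP and TIP60 complexes, and EP400 is the motor of the TIP60 complex, which exchanges histone variants. CHD1 binds methylated histone H3 and acts at transcribed genes, CHD4 is the motor of the NuRD deacetylase complex, and SMARCA5 (also called SNF2H) is an ISWI motor that spaces nucleosomes. The occupancy described here is that of the genes of these proteins by ARID1A, and says nothing of where the proteins themselves bind.

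The stretches before the transcript starts are shown for 6 genes as examples of different patterns of start peaks. At INO80 all 6 lists had a peak, at INO80B and at the inner start of RUVBL1 only the WT and the knockdown lists, at INO80C only the WT and the V2084D lists, at EP400 only the WT lists, and at SMARCA5 the WT lists and replicate 1 of each mutant group. Each sequence is the 250 bases before the start, 5′ to 3′ along the gene, from RefSeq (GRCh38.p14), and capitals mark matches to any of 10 short motifs named further on.
INO80 (chr15:41116281-41116530, minus strand): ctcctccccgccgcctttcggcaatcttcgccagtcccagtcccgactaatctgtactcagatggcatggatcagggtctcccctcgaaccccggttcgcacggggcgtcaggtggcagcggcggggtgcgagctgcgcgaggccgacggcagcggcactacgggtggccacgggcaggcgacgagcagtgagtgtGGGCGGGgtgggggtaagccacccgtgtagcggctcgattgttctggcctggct
INO80B (chr2:74454837-74455086, plus strand): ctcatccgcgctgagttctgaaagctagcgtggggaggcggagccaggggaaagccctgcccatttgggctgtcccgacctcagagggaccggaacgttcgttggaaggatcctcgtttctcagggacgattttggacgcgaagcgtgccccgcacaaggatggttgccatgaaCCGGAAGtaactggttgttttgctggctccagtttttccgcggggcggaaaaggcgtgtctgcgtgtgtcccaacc
RUVBL1, inner start (chr3:128123813-128124062, minus strand): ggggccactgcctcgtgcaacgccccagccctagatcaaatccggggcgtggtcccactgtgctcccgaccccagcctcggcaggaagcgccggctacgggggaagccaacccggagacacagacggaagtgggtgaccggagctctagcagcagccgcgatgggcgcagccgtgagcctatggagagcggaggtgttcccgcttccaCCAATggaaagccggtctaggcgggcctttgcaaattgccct
INO80C (chr18:35497609-35497858, minus strand): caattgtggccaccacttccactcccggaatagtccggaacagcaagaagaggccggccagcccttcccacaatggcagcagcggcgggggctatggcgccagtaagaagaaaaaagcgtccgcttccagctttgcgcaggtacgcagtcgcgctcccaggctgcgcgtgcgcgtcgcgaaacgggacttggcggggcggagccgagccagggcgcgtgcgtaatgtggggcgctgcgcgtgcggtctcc
EP400 (chr12:131949692-131949941, plus strand): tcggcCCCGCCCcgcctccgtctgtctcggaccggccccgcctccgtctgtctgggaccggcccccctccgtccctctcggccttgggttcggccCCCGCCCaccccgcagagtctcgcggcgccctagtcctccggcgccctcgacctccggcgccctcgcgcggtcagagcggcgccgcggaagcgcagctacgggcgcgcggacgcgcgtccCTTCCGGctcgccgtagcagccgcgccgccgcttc
SMARCA5 (chr4:143513452-143513701, plus strand): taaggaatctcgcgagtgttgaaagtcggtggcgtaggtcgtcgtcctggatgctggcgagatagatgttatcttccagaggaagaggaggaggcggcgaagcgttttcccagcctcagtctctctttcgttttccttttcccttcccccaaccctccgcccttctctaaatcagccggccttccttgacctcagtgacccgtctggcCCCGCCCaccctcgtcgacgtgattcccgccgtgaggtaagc

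The start of INO80C in that table lies inside the annotated gene, which reaches further upstream, so its stretch is part of the gene as well. The INO80B stretch has a CCGGAAG match, the core letters bound by ETS factors, that begins 76 bases before the start. The RUVBL1 stretch has a CCAAT match (NF-Y) beginning 42 bases before the inner start, and those of INO80 and SMARCA5 have a GGGCGGG match (SP/KLF) that begins 54 and 42 bases before the start. The INO80C stretch matched none of the 10 motifs.

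The lists held 106 peaks in the windows of the 10 genes. Of these, 45 overlapped the stretch within 1 kb of a transcript start of the gene. Another 40 did not, but had their summit within 1 kb of an annotated end of another gene, and 21 lay at neither. A start here is any entry for the gene in the RefSeq promoter table, and RUVBL1 and RUVBL2 have 2 entries each. The 1 kb limit was chosen after the peaks had been seen. WT replicates 1 and 2 held 34 and 30 of the peaks, V2084D replicates 9 and 12, and knockdown replicates 11 and 10. The WT lists were 27587 and 26515 peaks long, the V2084D lists 6000 and 12384, and the knockdown lists 8904 and 6663. The read depth is unknown from these files, so less bound protein and a less deeply sequenced library cannot be told apart where a peak is missing. None of the 10 genes lies on chromosome 1 or 6.

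All 10 genes had a peak in WT replicate 1 (background 71.7% of all protein-coding genes) and in WT replicate 2 (71.1%). Of the 10, 8 and 7 had one in the V2084D replicates (28.8% and 45.8%), and 7 in each knockdown replicate (39.8% and 31.2%). All 10 were in both WT lists, as were 66.5% of all protein-coding genes. A peak in both V2084D lists was found at 6 of the 10, against a background of 24.2% (INO80, INO80B, INO80C, INO80E, EP400 and CHD4). In both knockdown lists there was one at 5, against a background of 25.2% (INO80, INO80B, INO80E, RUVBL1 and CHD4). These counts ask for a peak anywhere in the window, and at EP400 and CHD4 the peaks of the V2084D replicates did not overlap. INO80, INO80B, INO80E and CHD4 had a peak in all 6 lists, against a background of 16.3%. None of the 10 lacked a peak in all mutant lists, where 19.3% of the genes with a peak in both WT lists did. Long genes have larger windows, and the median length of the 10 genes was 40.5 kb, from 2.9 kb for INO80B to 137.4 kb for INO80, against 24.1 kb for all protein-coding genes. A start peak was listed for 10 and 9 of the 10 genes in WT (background 61.2% and 59.7%), for 4 and 3 in V2084D (20.4% and 33.5%) and for 6 and 4 with knockdown (29.5% and 22.0%). Start peaks in both V2084D lists were found at INO80 and INO80C (background 16.0%), and in both knockdown lists at INO80, INO80B, INO80E and RUVBL1 (16.7%).

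**Figure D1:**
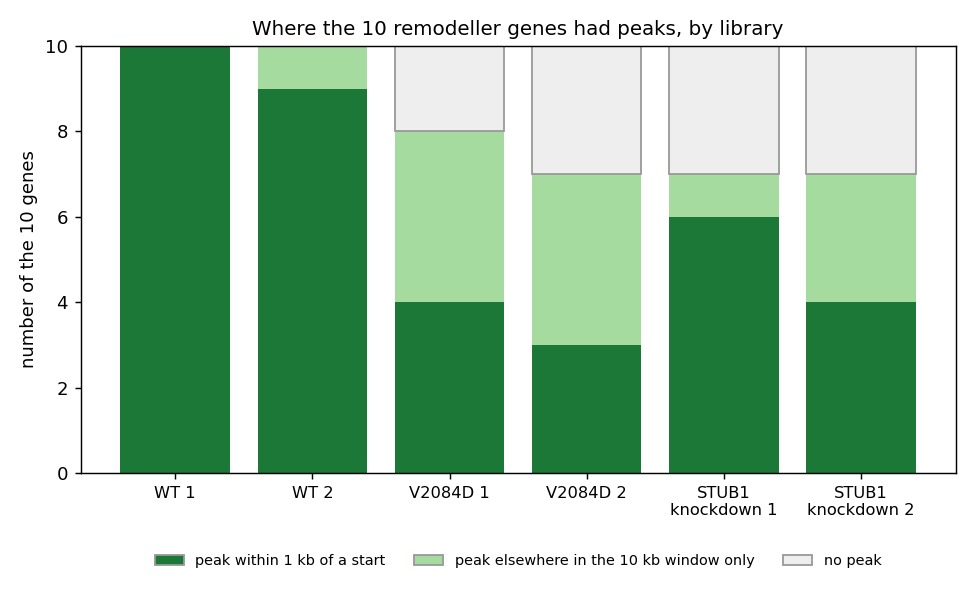
Number of the 10 genes (vertical axis) with a peak within 1 kb of a transcript start, with peaks elsewhere in the 10 kb window only, or with no peak, in each of the 6 libraries (KD is V2084D with STUB1 knockdown). The WT bars are 10 and 9 high for start peaks, and the mutant bars run from 3 to 6.

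**Figure D2:**
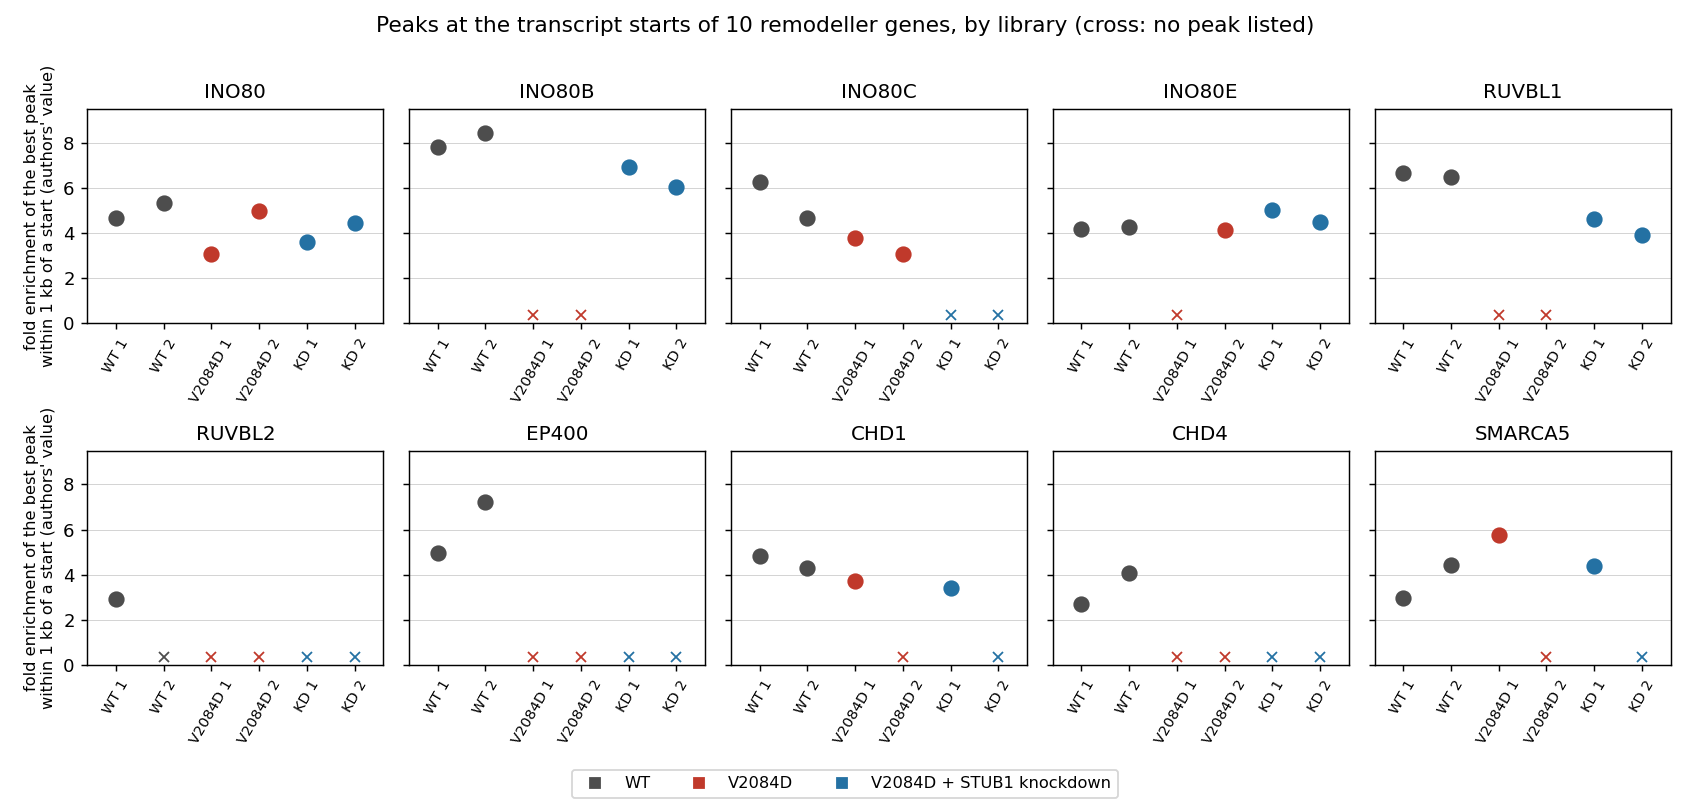
Fold enrichment, as given by the authors' caller, of the best-ranked peak within 1 kb of a start for each gene, 1 point per library and a cross where no peak was listed (KD is V2084D with STUB1 knockdown). The INO80B and RUVBL1 panels have crosses in both V2084D libraries alone, INO80C in both knockdown libraries alone, and for RUVBL1 the 2 knockdown points belong to different starts.

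INO80, the motor gene on chromosome 15 from 40978880 to 41116280, was the only one of the 10 with a start peak in all 6 lists, a pattern seen at 9.8% of the 15842 protein-coding genes with an entry in the promoter table. The start peak had WT fold enrichments of 4.67 and 5.33, V2084D values of 3.08 and 4.99, and knockdown values of 3.59 and 4.45. V2084D replicate 2 lay between the WT values, and the other 3 mutant values lay below both. Peaks were ranked within each list by −log10 q, with 1 for the strongest. The start peak had WT ranks of 10932 and 6334, V2084D ranks of 5553 and 1792, and knockdown ranks of 5033 and 1311. In V2084D replicate 1 this was near the bottom, 92.5% of the way down a list of 6000, and in replicate 2 it was 14.5% of the way down. All 6 summits lay from 70 bases before to 230 bases after the start. A weak second peak inside the gene, 93805 and 93446 bases from the start, was found in both WT lists (folds 3.17 and 3.66) and in no mutant list.

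INO80B, a short gene on chromosome 2 from 74455087 to 74457944, had strong WT peaks at both of its ends, and the 2 ends had different patterns in the mutant lists. At the start the WT folds were 7.83 and 8.44, no peak was listed in either V2084D library, and the knockdown folds were 6.93 and 6.06. The knockdown peaks ranked 306 of 8904 and 369 of 6663, and the WT peaks 1712 and 820. The start peak was thus among the best 6.2% of each list that held it. Its summits lay 46 and 24 bases before the start in WT and 168 and 85 bases before it with knockdown. At the far end all 6 lists had a peak, in 5 of them with a summit 371 to 819 bases from the start of the next gene, WBP1. There the WT folds were 11.07 and 8.05, the V2084D folds 4.55 and 5.21, and the knockdown folds 7.04 and 4.20. In V2084D this peak ranked 3501 and 2742, and with knockdown 726 and 4411. The knockdown peaks thus stood 8.2% and 66.2% down their lists here, against 3.4% and 5.5% at the start. Another region, at the annotated end of MOGS, had WT folds of 5.75 and 5.83 and a peak in V2084D replicate 2 (4.37). The start of INO80B is 64 bases from that of the read-through transcript INO80B-WBP1, so a peak there belongs to both.

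INO80C, on chromosome 18 from 35468333 to 35497960, had a single peak per list, at its start, and the reverse pattern. The WT folds were 6.27 and 4.66, the V2084D folds 3.79 and 3.09, and neither knockdown list had a peak in the whole window. The ranks were 636 and 4543 in WT, and 1076 of 6000 and 5215 of 12384 in V2084D. The 4 summits lay between 178 and 280 bases before the start in the promoter table, all of them inside the annotated gene. Both V2084D folds were below both WT folds. Among genes with a start peak in both WT lists, 2.92% had this pattern of a peak in both V2084D lists and in neither knockdown list.

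INO80E, on chromosome 16 from 29996241 to 30005791, shares its start region with HIRIP3, a histone chaperone partner gene transcribed in the other direction from starts 145 and 624 bases away. The best start peak had folds of 4.20 and 4.26 in WT, no counterpart in V2084D replicate 1, 4.13 in V2084D replicate 2, and 5.01 and 4.50 with knockdown. It ranked 345 of 8904 and 928 of 6663 with knockdown, 7250 and 5317 in WT, and 2657 of 12384 in V2084D replicate 2. The summits of these peaks lay from 312 to 747 bases before the INO80E start, on the HIRIP3 side. V2084D replicate 1 had a single peak in the window, beyond the far end of the gene, with a fold of 3.49 and a rank of 5791 of 6000. Its place among the genes with a peak in all 6 lists rests on that peak. A WT region inside the gene, with folds of 6.07 and 4.85, had no peak in any mutant list.

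**Figure D3:**
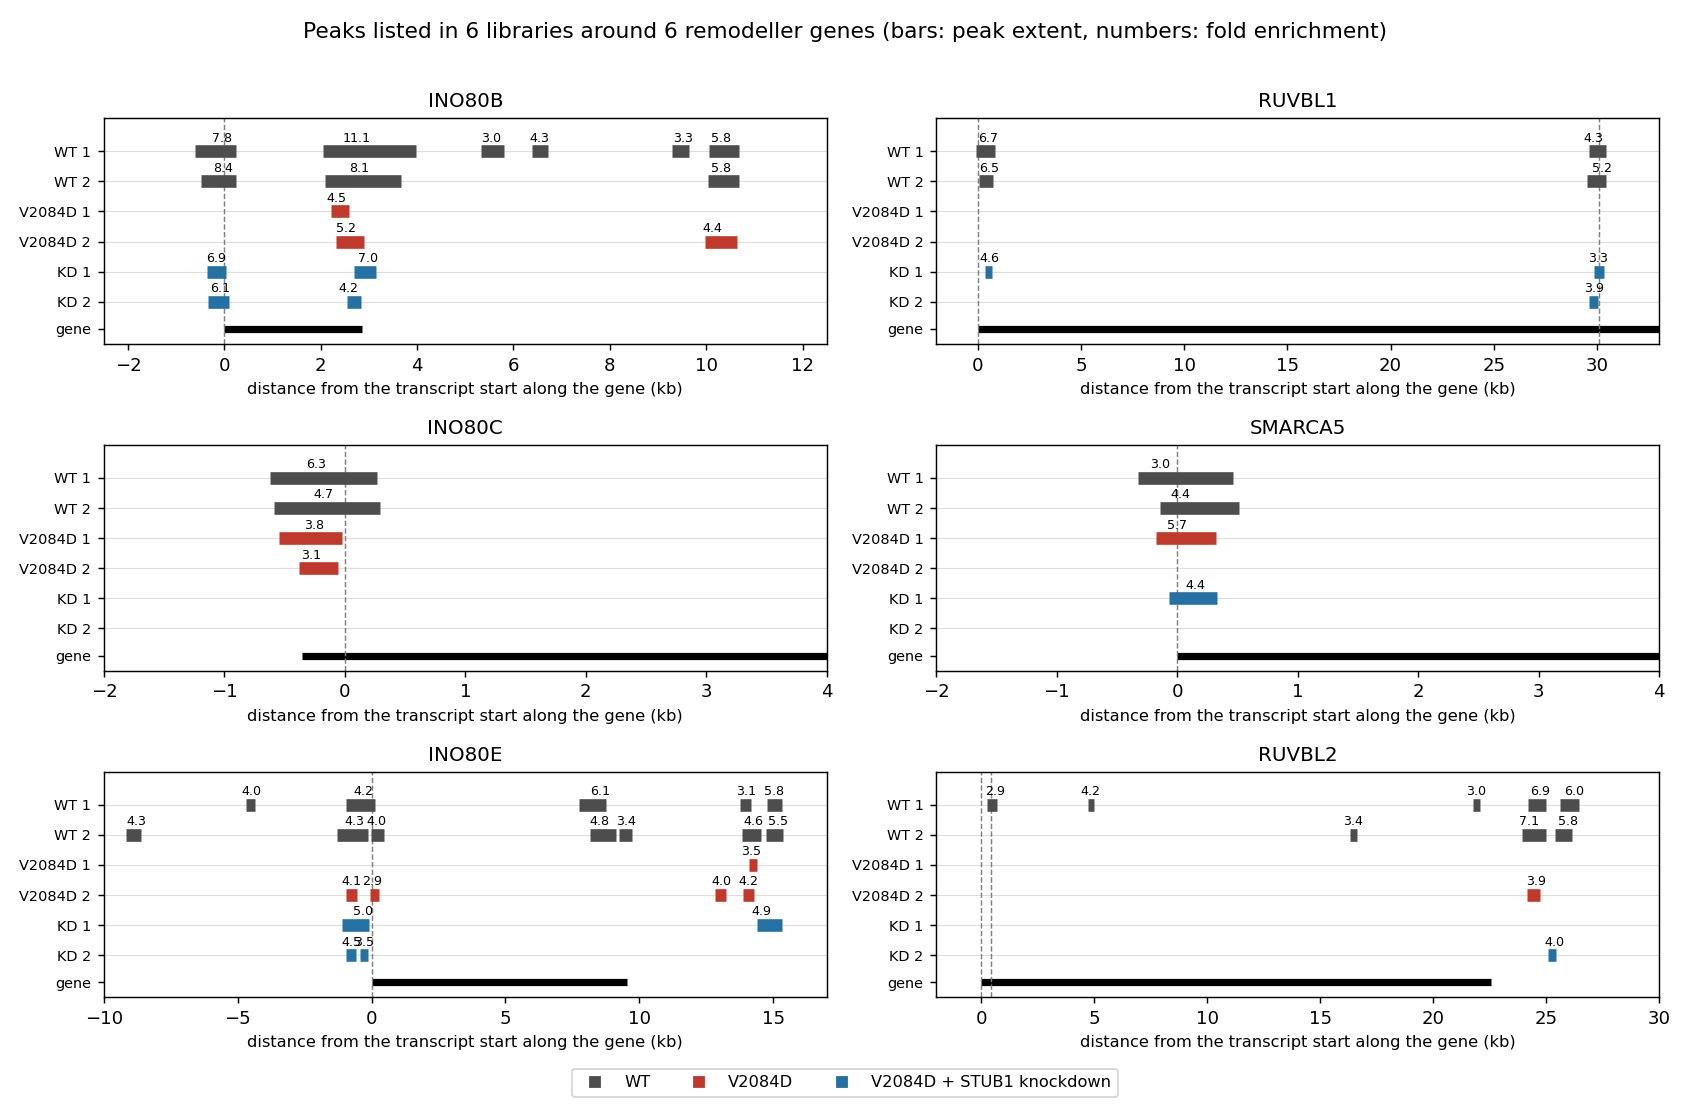
Peaks in the 6 libraries (rows) around INO80B, RUVBL1, INO80C, SMARCA5, INO80E and RUVBL2, drawn as bars over the distance from the transcript start in kb, with the fold enrichment above each bar, dashed lines at the starts and a black bar for the gene (KD is V2084D with STUB1 knockdown, and the far part of RUVBL1 is not drawn). At INO80B the V2084D rows are empty at the start while the far end of the gene has a bar in all 6 rows.

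The RUVBL genes encode partner ATPases that work as mixed rings, and their patterns differed. RUVBL1, on chromosome 3 from 128064785 to 128153914, has an upstream start at 128153914 and an inner start at 128123812. At the upstream start the WT folds were 6.65 and 6.47 (ranks 1445 and 2388), no V2084D peak was listed, and knockdown replicate 1 alone had a peak (4.62, rank 3083). These summits lay 486 to 565 bases inside RUVBL1 and 53 to 132 bases from the start of EEFSEC, which is transcribed the other way. At the inner start the WT folds were 4.33 and 5.18, no V2084D peak was listed, and the knockdown folds were 3.33 and 3.90. The knockdown peaks there ranked 7588 of 8904 and 3016 of 6663. RUVBL1 was the only one of the 10 genes without a V2084D peak anywhere in its window, against 28.8% of the genes with a peak in both WT lists. The further pattern of a peak in both knockdown lists was found at 2.11% of those genes over the window.

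RUVBL2, on chromosome 19 from 48993448 to 49015995, was hardly occupied at its own starts. WT replicate 1 listed a weak peak there, with a fold of 2.94 and a rank of 24729 of 27587, and no other library had any. The strong WT peaks of the window lay beyond its far end. A nearer region, by an annotated end of SAXO3, had folds of 6.90 and 7.12, and a farther one, by an annotated end of LHB, 5.96 and 5.85. By starts the farther region was the closer to SAXO3. Its WT replicate 1 summit lay 196 bases from the SAXO3 start, 399 from that of LOC124904738 and 2603 from that of LHB. In the nearer region that summit lay 1333 bases from the SAXO3 start. V2084D replicate 2 had a peak in the nearer region (3.94) and a peak of knockdown replicate 2 reached the farther one (4.03). A window peak in replicate 2 and none in replicate 1 of each mutant group was found at 2.68% of the genes with a peak in both WT lists. LHB belongs to a family of near-identical hormone genes, so reads there can be placed uncertainly.

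EP400, the motor gene of the TIP60 complex on chromosome 12 from 131949942 to 132080460, had a start peak in WT alone. The folds were 4.97 and 7.21, with ranks of 9585 and 1634, and none of the 4 mutant lists had a peak within 1 kb of the start. All 6 lists but knockdown replicate 1 had peaks elsewhere in the window. A region past the far end, at the related pseudogene EP400P1, had folds of 6.99 and 5.69 in WT, 3.55 in V2084D replicate 2 and 5.67 in knockdown replicate 2. The knockdown peak ranked 1697 of 6663. Since the pseudogene resembles the gene, the placing of reads there is uncertain. The peaks of V2084D replicates 1 and 2 inside the gene lay 51623 and 115547 bases from the start, apart from each other and from any WT peak.

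Of the CHD genes, CHD1 was occupied at its start and CHD4 mostly beyond its ends. CHD1, on chromosome 5 from 98853985 to 98929007, had start peaks with folds of 4.81 and 4.28 in WT, 3.74 in V2084D replicate 1 and 3.43 in knockdown replicate 1. Replicate 2 of V2084D and of the knockdown had no peak in the window. The WT peaks spanned 1321 and 1868 bp, and in each mutant library with a signal 2 short peaks of 290 to 329 bp fell inside the joined WT stretch. The non-coding genes CHD1-DT and LOC100289230 start 445 and 127 bases from CHD1 on the other strand, so the peaks cannot be given to CHD1 alone.

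CHD4, on chromosome 12 from 6570082 to 6607379, has its start in the promoter table at 6606451, inside the annotated gene. It had weak start peaks in WT, the best with folds of 2.71 and 4.08 and ranks of 26986 and 14855. No mutant list had one. A further WT replicate 1 peak (fold 3.25), 799 bases beyond the upstream end of the gene, was not within 1 kb of that start. The strongest WT region of CHD4 lay past the far end, at the starts of NOP2 and CHD4-AS1, with folds of 5.64 and 6.27. No mutant library had a peak there. Beyond the other end of the gene, with summits 5519 to 7087 bases from it and near LOC105369631, were 2 WT regions with folds of 4.49 and 4.95 in the nearer and 5.48 and 4.35 in the farther. Each mutant library had a peak in at least 1 of them, with best folds of 4.55 and 3.78 in V2084D and 3.86 and 4.26 with knockdown. The place of CHD4 among the genes with a peak in all 6 lists thus rests on mutant peaks at a distance from the gene. Neither of the 2 regions had a peak in every mutant list.

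SMARCA5, the ISWI motor gene on chromosome 4 from 143513702 to 143557486, had a single peak per list, at its start, with summits 89 to 384 bases from an annotated end of SMARCA5-AS1. The folds were 2.98 and 4.42 in WT, 5.74 in V2084D replicate 1 and 4.39 in knockdown replicate 1. In V2084D replicate 1 it ranked 453 of 6000, the best rank of any of the 10 genes in that list, while in WT it ranked 23341 of 27587 and 10463 of 26515. Replicate 2 of V2084D and of the knockdown had no peak, although the V2084D replicate 2 list is the longest of the mutant lists. CHD1 and SMARCA5 thus both had start peaks in replicate 1 and not in replicate 2 of each mutant group. Among genes with a start peak in both WT lists this pattern was found at 1.88%, and that with the replicates exchanged at 2.82%. Over the window it was found at 1.69%. These replicate patterns were looked for after the peaks had been seen. Nothing in the labels says that equal numbers mark a shared day or culture.

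Joined over both WT lists, the windows of the 10 genes held 23 reproducible WT regions, formed from WT peaks that overlapped by at least 1 bp. A peak of at least 1 mutant library overlapped 17 of them (73.9%), and 65.1% of all 16157 WT regions were so covered. No V2084D peak was found at 11 (47.8%, against 46.8% of all), and 2 had one in every mutant list (8.7%, against 2108 of the 16157), the start of INO80 and the far end of INO80B. The regions without V2084D and with both knockdown peaks were the start of INO80B and the inner start of RUVBL1, 2 of 23 where 2.46% of all WT regions had this pattern. The start of INO80C was the region with the opposite pattern, found at 2.70% of all. The summits of the 2 WT libraries lay a median of 164 bp apart in these regions, against 123 bp over all.

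The other genes of the families were taken from a list of 54 (8 of the INO80 complex, 16 of the SRCAP and TIP60 complexes, 8 of the CHD family, 12 partners of CHD4 in NuRD, and 10 of the ISWI family and its partners). A peak in both WT lists lay in the window of 52 of them (background 66.5%). ACTR5 and NFRKB of the INO80 complex were without. A peak in all 6 lists was found at 22 of the 54, where 16.3% of all protein-coding genes and 4 of the 10 genes had one. The 22 were 1 of the INO80 complex (YY1), 5 of SRCAP and TIP60, 5 of the CHD family, 7 of the NuRD partners and 4 of the ISWI group. Among the genes with the best WT ranks, RBBP4, a histone-binding subunit of NuRD, had WT ranks of 322 and 62, V2084D ranks of 85 and 236, and knockdown ranks of 37 and 33. KAT5, the acetyltransferase of TIP60, had best WT folds of 8.71 and 9.47, V2084D folds of 4.69 and 4.79, and knockdown folds of 9.29 and 3.52. CHRAC1, a histone-fold partner of SMARCA5, had best folds of 11.60 and 14.21 in the WT lists. They were 5.76 and 7.23 in those of V2084D, and 5.87 and 8.66 in those with knockdown. CHRAC1 had no entry in the promoter table. For the 54 genes these are the best peaks anywhere in the 10 kb window, and whether they lay at neighbouring genes was not looked at. MCRS1 of the INO80 complex had best ranks of 3142 of 27587 and 3440 of 26515 in WT and no V2084D peak. With knockdown it had a peak in replicate 2 alone (rank 1338 of 6663).

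The 54 genes had no V2084D peak in 12 of the 52 cases with a WT peak (background 28.8%). Of these 12, MTA3, a NuRD subunit gene, alone had peaks in both knockdown lists, a pattern with a background of 2.11%. Its best folds were 5.63 and 7.73 in WT and 4.40 and 3.72 with knockdown. At starts, 44 of the 54 could be looked at. There, 40 had a peak in both WT lists (background 55.5%), and 10 of the 40 had no V2084D peak (36.7%). CHD2 and MTA3, 2 of the 40, had no V2084D and both knockdown peaks (2.47%). CHD2 was singled out after its values were seen. Of the 10 genes, 9 had a start peak in both WT lists (background 55.5%), and 4 of the 9 (INO80B, RUVBL1, EP400 and CHD4) had no V2084D start peak (background 36.7%). INO80B and RUVBL1, 2 of the 9, had start peaks in both knockdown lists as well (background 2.47%), and EP400 and CHD4 had none in any mutant list (background 25.1%). Counts this small, from genes picked with these patterns in view, are no evidence about the families.

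**Figure D4:**
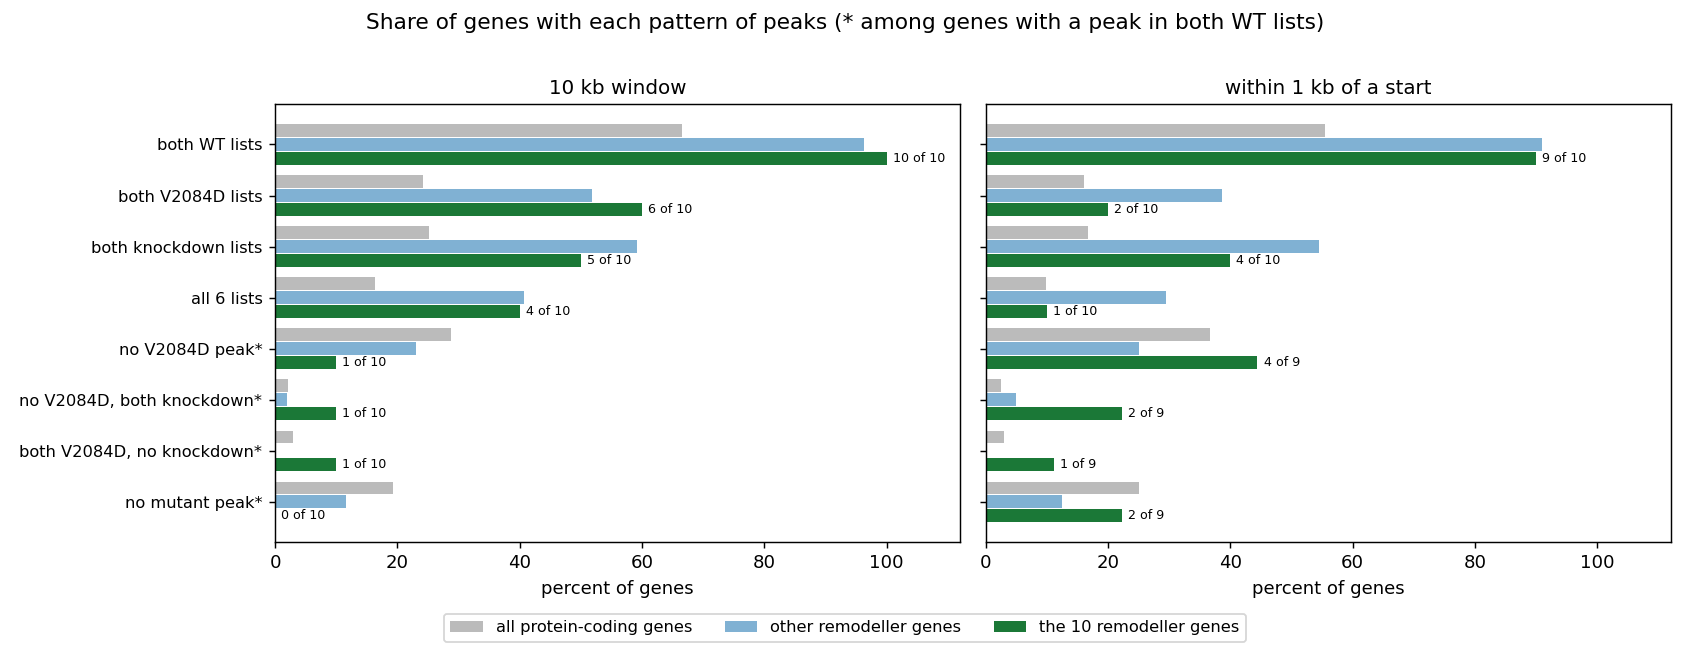
Percent of genes (horizontal axis) with each pattern of peaks, over the 10 kb window (left) and within 1 kb of a start (right), for all protein-coding genes, the 54 other remodeller genes (44 at starts) and the 10 genes, whose counts are printed. Over the window 10 of 10 genes had a peak in both WT lists and 1 of 10 had no V2084D peak, and at starts the latter count was 4 of 9.

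In WT, where all 10 genes had a peak, the best peak of a gene ranked at a median of 19.6% and 14.6% down the list, against 24.0% and 24.9% over all protein-coding genes with a peak. Over those of the 10 genes with a peak the median was further down the V2084D lists than that of all such genes, at 58.4% (8 genes) against 42.1% in replicate 1 and 42.1% (7 genes) against 34.6% in replicate 2. With knockdown it was 44.7% against 38.9% in replicate 1 and 25.5% against 40.0% in replicate 2, each over 7 genes. The lowest rank percent in WT was that of INO80B (1.4% and 3.1%), and the highest that of SMARCA5 (84.6% and 39.5%). The genes whose best ranks were most like those of each of the 10 were found by the mean absolute difference in rank percent over the 6 lists, with 100 for no peak. For RUVBL1 the nearest were ZNF780A and RBM25 (differences of 1.13 and 2.08), for INO80B VDAC2 and TLE3 (2.23 and 3.55), and for INO80C TUBA1B and KIF2A (4.01 and 4.09). SMARCA5 had no gene so near, the closest being TFCP2L1 at 9.42.

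The promoter windows of the 10 genes (12 windows, from 250 bases before to 50 after a start) were rich in G and C, with a median of 65.7% against 62.3% for 22198 windows of protein-coding genes. The range ran from 49.7% at the upstream start of RUVBL1 to 79.0% at EP400. CG pairs numbered from 17 to 51, a median of 26.5 against 21.0. Both strands were searched for 10 motifs. CCGGAAG (ETS) was in 4 windows (INO80B, INO80E, EP400 and CHD4), and 12.8% of all windows hold it. GGGCGGG (SP/KLF) was in 6 windows (42.3% of all) and CCAAT (NF-Y) in 5 (34.7%). CATTCC (TEAD) was found once, at RUVBL2 (12.2%), where it overlaps a CCAAT match, and TATAAA once, at the upstream start of RUVBL1 (9.47%). TGACTCA (AP-1, 4.01%), TGACGT (CRE, 8.94%), AAGATGG (YY1, 6.04%), GCGCATG (NRF1, 5.26%) and CACGTG (E-box, 8.34%) were in none of the 12. These matches are letters in a window and are no record of binding.

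At the border of the windows, the outermost peak inside was that of WT replicate 2 at 8799 bp from INO80E, with a fold of 4.26, followed by the MOGS peaks at 7443 and 7447 bp from INO80B in WT. The nearest outside were WT replicate 2 peaks at 10191 bp from RUVBL1 (fold 3.88) and at 10548 bp from CHD4 (3.96).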

How the data were processed

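Flag ChIP-seq of 6 libraries in 3 groups of 2 was used, as 1 peak list per library. Per the submitters' processing notes, which give no order or role, the authors used MACS2, Bowtie2, Trimmomatic, Picard, SAMtools, deepTools and bedtools with the hg38 build. Their settings and the control of the peak calls are not given in the sources used. The authors deposited for each peak a fold enrichment (a ratio), −log10 p and −log10 q, and a score, the whole part of 10 times −log10 q. Fold, rank by −log10 q and summit were compared only as values side by side. Read depth is unknown.

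Genes and starts came from RefSeq tables of GRCh38.p14 (hg38), and all 10 genes matched by symbol. Exons and UTRs were not used here. Peaks were counted per gene by summit, and at starts by an overlap of at least 1 bp with the stretch 1 kb to either side. Background shares are over all protein-coding genes for the window, and at starts over the 15842 with an entry in the promoter table. Shares of patterns that lack a peak in some mutant lists are over the genes with a peak in both WT lists. These numbered 13325 over the window and 8798 at starts. The genes, lists, motifs and the rule for named genes were chosen with earlier results of these data known. That rule took all 10 genes, the 2 genes per family with the best WT ranks, those regained with knockdown, neighbours within 1 kb of a summit and the 2 most alike genes per member, of which some are not reported here. No test was made. Alternatives changed the window, the peak threshold, list length, overlap and the libraries kept. The code used Python 3.11.15, pandas 2.3.3, numpy 2.4.6 and matplotlib 3.10.9. Its counting of peaks per gene by summit and by overlap, and its joining of regions, were tested on simulated data. The counts at starts, the ranks, the most alike genes and the motif matches were not.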

Additional observations from a re-analysis of the deposited data

How the results depend on the processing

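The counts of genes were recomputed under 10 other settings that kept all libraries (windows, thresholds, equal lists of the 6000 strongest peaks, assembled chromosomes, and the starts alone, the last chosen after seeing the data). Apart from the starts alone, no share over all protein-coding genes was computed under these settings, so the counts have no background beside them. Whether all genes shifted alike was not tested. A peak in both WT lists was found at 6 of the 10 genes with fold of at least 5 and at 5 with equal lists. For both V2084D lists the count fell to 3 at 1 kb around gene ends, 2 at starts and 0 with −log10 q of at least 5 or fold of at least 5. For both knockdown lists it was 1 in gene bodies, 3 at gene ends, 2 by −log10 q and 1 by fold. A peak in all 6 lists was found at 2 genes with 2 kb flanks and at gene ends, at 1 with equal lists and at starts, and at 0 in gene bodies, by −log10 q and by fold. Genes with WT peaks and no V2084D peak numbered 2 with 5 kb flanks and with equal lists, 3 with 2 kb flanks, in gene bodies and at gene ends, 4 at starts, 5 by fold and 7 by −log10 q. Those with knockdown peaks as well numbered 0 at gene ends and by fold, and 2 at starts (INO80B and RUVBL1) and by −log10 q (INO80B and INO80E). With a library left out these 6 counts ran, in the same order, from 10 to 10, 6 to 8, 5 to 7, 4 to 5, 1 to 3 and 1 to 1. Its group was then read from the remaining list alone, so none of the counts could fall. The count of 1 without a V2084D peak became 3 without V2084D replicate 1 (RUVBL1, CHD1 and SMARCA5) and 2 without replicate 2 (RUVBL1 and RUVBL2).

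The 23 WT regions became 14 with summits within 200 bp, 13 by −log10 q and 5 with equal lists, and the 17 with a mutant peak became 11 with 50% overlap of both peaks, 9 with summits within 200 bp, and 4 by −log10 q and with equal lists. With a mutant library left out they ran from 23 to 23 and from 15 to 17. The regions were formed from the WT lists alone, so their number could not change and the covered number could not rise. Shares of all WT regions under these settings are not given. No paired analysis was possible because the results are counts from no test, so that there was no fit to which a block could be added. Patterns by replicate number are given as counts alone. Unknown read depth limits all statements on missing peaks.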

Other observations

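All 12 NuRD partner genes of CHD4 had a peak in both WT lists, 11 in both knockdown lists and 7 in both V2084D lists, where the shares of all protein-coding genes were 66.5%, 25.2% and 24.2%. For the 8 CHD family genes these counts were 8, 6 and 6, and no difference between the families was tested. Unlike the 10 genes, some of these lie on chromosome 1 or 6. They are GATAD2B, HDAC1, RBBP4, CHD1L and CHD5 on chromosome 1 and HDAC2 on chromosome 6. All but CHD5 had peaks in both knockdown lists, and all but CHD5 and HDAC2 in both V2084D lists. HDAC1 had 5 and 9 peaks in V2084D, 3 and 2 with knockdown, and 4 and 4 in WT. MTA2, a NuRD subunit gene, had best WT folds of 11.93 and 11.29, V2084D folds of 5.37 and 7.60, and knockdown folds of 6.60 and 5.57. By the worse of the WT ranks CHD3 was first in the CHD family, and CHD1L and CHD7 were level behind it at 2543. CHD3 and CHD1L had a peak in all 6 lists, and CHD7 in all but knockdown replicate 2. CHD3 had WT ranks of 162 and 1474, V2084D ranks of 151 and 2299, and knockdown ranks of 726 and 649.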
